A study of Rattus norvegicus with 8 samples.

Results

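Collagens are the 38 genes whose name on the array is Col, a type number, the letter a and a chain number. They were taken from the 26204 gene names of a rat expression array, on which 53 probes carried a collagen name. The genes were sorted by textbook class into 11 fibrillar collagens, 5 chains of the basement membrane collagen type IV, and 22 others. The arrays measured RNA of whole ovaries from immature female rats. The rats of the 4 samples labelled PMSG had received, under the skin at an age of 26 days, 50 IU of pregnant mare serum gonadotropin (PMSG), a hormone preparation that drives follicle growth, in 0.2 ml of phosphate buffer with albumin. The rats of the 4 samples labelled control had received the buffer alone. All ovaries were removed 48 h after the first injection, at 28 days of age. Whether each array held 1 animal or a pool is not stated in the sources used here, so a p-value measures the spread between these 8 samples only. No strain, allele or transgene is named in the labels.

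Collagens are secreted proteins made of chains that wind around each other along a repeat of glycine and other residues. Fibrillar collagens such as types I, III and V bundle into the fibres of connective tissue. Type IV collagen forms sheets, and in the ovary it is part of the basal lamina that separates the granulosa cells of a follicle from the theca, as well as of the lamina around vessels. The other families coat fibrils, anchor epithelium, span the cell membrane or form networks near vessels. Chains are hydroxylated and folded in the endoplasmic reticulum, trimmed outside the cell, and crosslinked by lysyl oxidases. Growth and rupture of follicles involve the remodelling of this matrix.

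Levels below are log2 signals of 1 probe relative to the 75th percentile of its own array, so they compare arrays and not genes, and a difference is PMSG-labelled minus control-labelled. The brightest probe spoke for a gene. A gene was tested with limma where its probe stood well above background on at least 4 of the 8 arrays, and passed the threshold at a Benjamini-Hochberg adjusted p under 0.05 over all 25303 tested probes. Between 80.8% and 84.6% of the probes were above background on each array, and 0 spots were saturated. The label PMSG is kept throughout because several hormone-response genes moved opposite to what gonadotropins are known to do. If the labels were exchanged, every direction given below would turn, while the sizes and the total counts would stay, and whether they are right was not tested. Transcripts of the steroid-making genes Cyp11a1 and Star and of the luteinising hormone receptor Lhcgr differed by -3.36, -2.75 and -1.93. The growing-follicle hormone gene Amh and the theca hormone gene Insl3 differed by 3.03 and 2.60. Of the listed granulosa markers, Cyp19a1 was not matched by name. In whole ovary, fewer cells of a type and less RNA per cell cannot be told apart.

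The collagens moved in both directions. Of the 38 genes, 35 were tested, and 15 of these (42.9%) passed the threshold, 7 higher and 8 lower in PMSG-labelled arrays. Over all 21922 gene names tested in the same way, 34.5% passed, 18% higher and 16.5% lower, and over all 25303 tested probes 34.2%. The groups did not overlap for 17 of the 35 collagens (48.6%), against 37% of all gene names tested. A difference of at least 2-fold was reached by 9 of the collagens that passed, 4 higher and 5 lower, while 12% of all gene names did so. The median difference was 0.090 over the 35 collagens and 0.12 over all gene names. By class, 4 of 10 tested fibrillar genes passed (3 higher, 1 lower), 3 of 5 basement membrane genes (1 higher, 2 lower) and 8 of 20 others (3 higher, 5 lower). Centring each array on its median instead of its 75th percentile, which moved the median difference of all tested probes from 0.11 to -0.054, left 4 collagens higher and 8 lower, and turned the collagens' own median to -0.078.

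**Figure D1:**
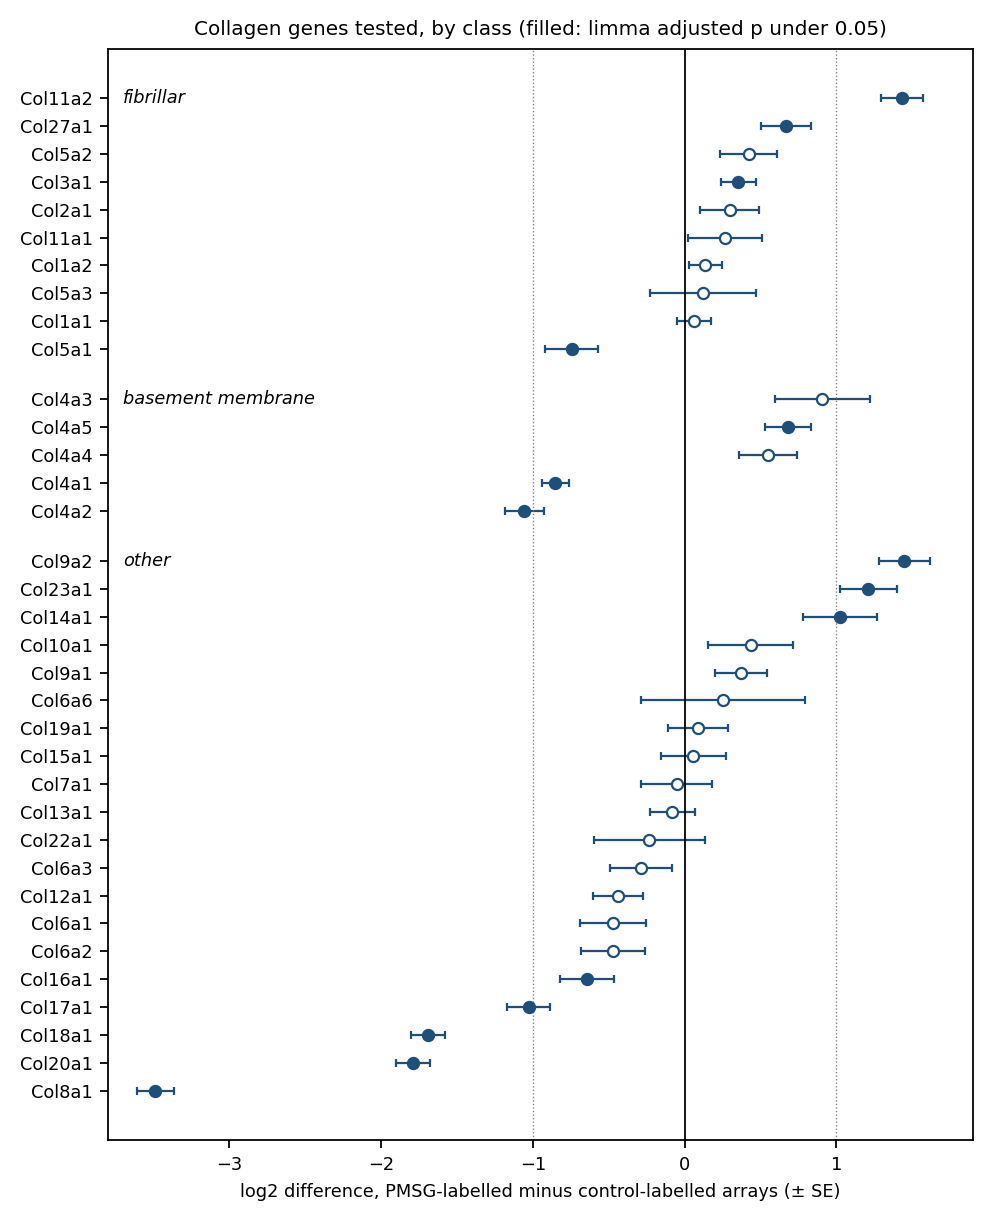
Log2 difference between PMSG-labelled and control-labelled arrays (horizontal axis, error bars ± SE) for the 35 tested collagen genes, grouped by class. Filled points passed an adjusted p of 0.05 in limma and dotted lines mark a 2-fold difference. Col8a1 lies farthest to the left at -3.49, and Col9a2 and Col11a2 lie farthest to the right.

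The largest difference belonged to Col8a1, a short-chain collagen that forms networks under endothelium and around smooth muscle. It stood at -0.18, -0.28, -0.086 and -0.029 in control-labelled arrays 1 to 4, and at -3.65, -3.36, -3.82 and -3.69 in PMSG-labelled arrays 1 to 4. The PMSG-labelled values lay 11.2-fold below the control-labelled ones on average (difference -3.49, SE 0.12, adjusted p = 1.16e-05), and the groups were far apart with little spread in either. With normexp background correction, which adds an offset of 50 to the signals, the fold was 6.72. The probe lies at chr11:43733411-43733470 of the rat build rn4, on the plus strand. Its partner chain gene Col8a2 was above background on 0 of 8 arrays and was not tested. Col10a1, the third gene of this family, stood at -5.86 ± 0.038 (SD, n = 4) in control-labelled arrays and -5.42 ± 0.63 (SD, n = 4) in PMSG-labelled arrays, and its difference of 0.44 (adjusted p = 0.255) missed the threshold.

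Col18a1, a heparan sulfate collagen of vascular and epithelial basement membranes whose end fragment is endostatin, fell as well. It stood at 3.99, 3.85, 3.94 and 3.89 in control-labelled arrays 1 to 4, and at 2.17, 2.00, 2.38 and 2.37 in PMSG-labelled arrays 1 to 4. The lowest control-labelled array was above the highest PMSG-labelled one by more than the range within either group (difference -1.69, SE 0.11, 3.22-fold, adjusted p = 6.51e-05, probe at chr20:11981417-11981476 of rn4). Col15a1, the other multiplexin, found beneath endothelium and muscle, had a difference of 0.058 (adjusted p = 0.847) and overlapping groups. Its level was 2.82 ± 0.24 (SD, n = 4) in control-labelled and 2.88 ± 0.40 (SD, n = 4) in PMSG-labelled arrays.

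Among the fibril-associated collagens, which sit on the surface of fibrils, members moved in opposite directions. Of 9 such genes, 8 were tested, 2 rose and 2 fell, beside 18% of all gene names higher and 16.5% lower. Col20a1, a little studied member, stood at -2.19, -2.38, -2.31 and -2.48 in control-labelled arrays 1 to 4, and at -4.07, -3.96, -4.28 and -4.21 in PMSG-labelled arrays 1 to 4. It was 3.46-fold lower in PMSG-labelled arrays, with no overlap (difference -1.79, SE 0.11, adjusted p = 5.20e-05, probe at chr3:170135060-170135119 of rn4), or 2.12-fold lower with normexp. Col9a2, a chain of the type IX collagen known from cartilage, moved the other way. It stood at -3.43, -3.71, -3.41 and -3.81 in control-labelled arrays 1 to 4, and at -2.39, -2.35, -2.05 and -1.77 in PMSG-labelled arrays 1 to 4. Every PMSG-labelled array was above every control-labelled one, by 2.73-fold on average (difference 1.45, SE 0.17, adjusted p = 0.000531, probe at chr5:141640162-141640221 of rn4). Of the other type IX chains, Col9a1 had a difference of 0.37 (adjusted p = 0.125) with overlapping groups. A dimmer Col9a1 probe had one of 1.04 (adjusted p = 0.104), also with overlapping groups. Another, above background on 0 control-labelled and 2 PMSG-labelled arrays, was not tested. Col9a3 was above background on 0 of 8 arrays.

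Col14a1, which binds type I fibrils in soft connective tissue, stood at 2.81, 2.34, 3.00 and 2.84 in control-labelled arrays 1 to 4, and at 3.24, 3.57, 4.01 and 4.29 in PMSG-labelled arrays 1 to 4. The values were spread widely among PMSG-labelled arrays, where array 1 was the nearest to the control-labelled range and array 4 the farthest from it. The mean was 2.04-fold higher (difference 1.03, SE 0.25, adjusted p = 0.0134, probe at chr7:92032865-92032924 of rn4). A second, dimmer probe for this gene also passed, with a difference of 0.79 (adjusted p = 0.0371). Col16a1, a fibril-associated collagen of many connective tissues, fell from 4.38 ± 0.12 to 3.73 ± 0.35 (SD, n = 4 each, adjusted p = 0.0236). It was past the threshold under 12 of 18 alternative settings. Col12a1, a fibril-associated collagen of tissue under load, had no overlap between groups but a difference of -0.44 (adjusted p = 0.072). Both of its dimmer probes passed, with -0.77 (adjusted p = 0.00122) and -0.75 (adjusted p = 0.00702). Col19a1 at 0.09 (adjusted p = 0.743) and Col22a1 at -0.23 (adjusted p = 0.64), both minor members of the family, had overlapping groups.

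**Figure D2:**
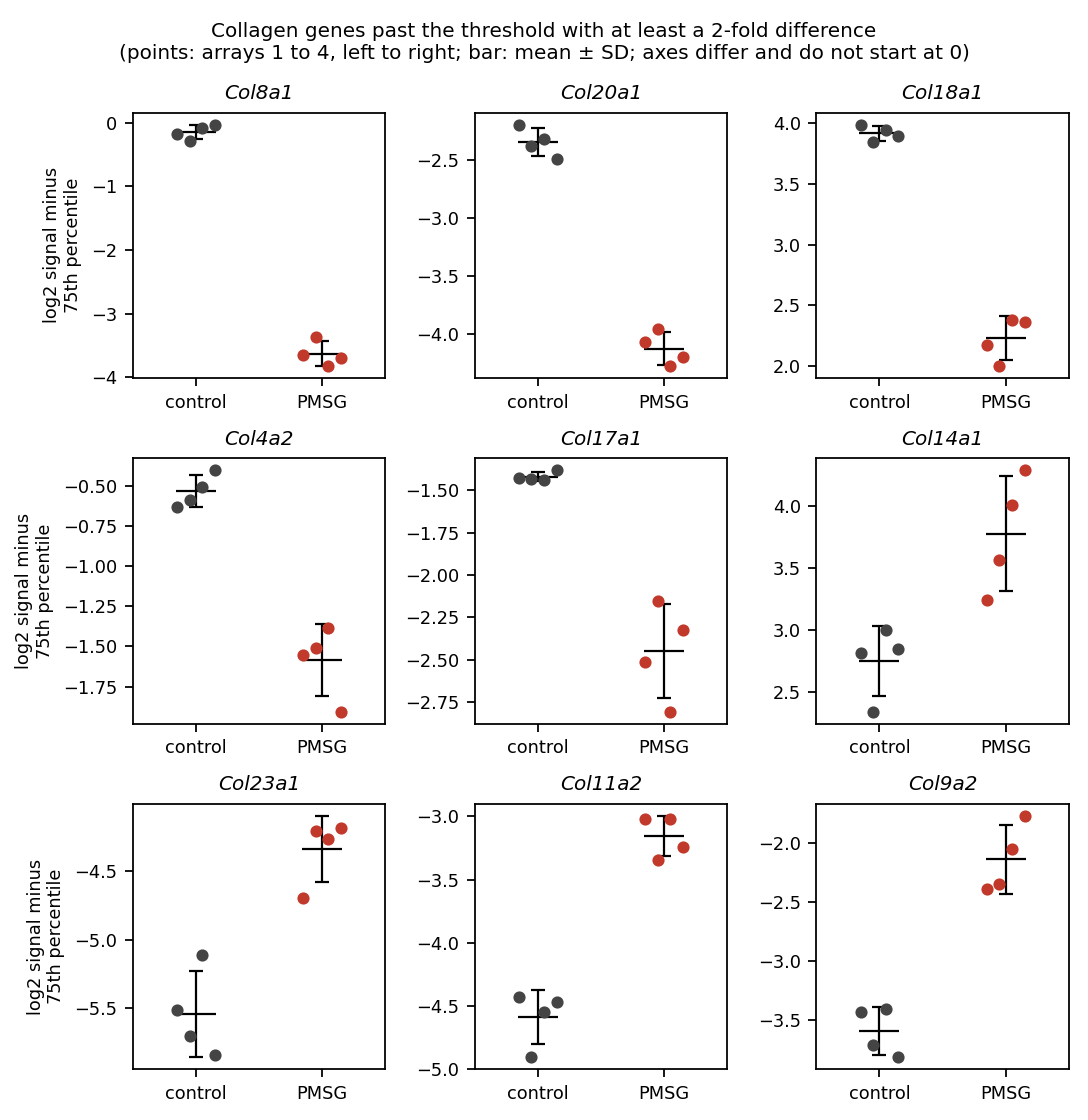
Log2 signal minus the array's 75th percentile (vertical axes, which differ between panels) for the 9 collagen genes that passed the threshold with at least a 2-fold difference. Points are arrays 1 to 4 of each label from left to right and bars give the mean ± SD. In none of the 9 panels do the control-labelled and PMSG-labelled points overlap.

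Of 3 membrane-spanning collagens, all tested, 1 rose and 1 fell, where 18% of all gene names were higher and 16.5% lower. Col17a1, the hemidesmosome collagen that ties epithelial cells to their basement membrane, stood at -1.43, -1.43, -1.44 and -1.38 in control-labelled arrays 1 to 4, and at -2.51, -2.16, -2.81 and -2.32 in PMSG-labelled arrays 1 to 4. The control-labelled arrays lay almost on top of each other and all PMSG-labelled arrays were lower (difference -1.03, SE 0.14, adjusted p = 0.00111). A dimmer probe of the same gene pointed the other way, with a difference of 0.75 (adjusted p = 0.079) and overlapping groups, and the mean of both probes gave -0.14 (adjusted p = 0.464). The difference therefore depends on the probe. The file places the brighter probe on a span of only 32 bases, chr1:253012167-253012198 of rn4. Col23a1, another membrane collagen, stood at -5.52, -5.71, -5.12 and -5.85 in control-labelled arrays 1 to 4, and at -4.70, -4.20, -4.26 and -4.18 in PMSG-labelled arrays 1 to 4. PMSG-labelled array 1 was the lowest of its group and still above every control-labelled array (difference 1.21, SE 0.19, 2.31-fold, adjusted p = 0.00183, probe at chr10:37096029-37096088 of rn4), or 1.43-fold with normexp. Its second probe was above background on 1 control-labelled and 4 PMSG-labelled arrays. With dim arrays raised to their lowest spot signal well above background, it was 2.40-fold higher in the processed signals (adjusted p = 0.00402 as measured). Col13a1, found at cell junctions and at the nerve-muscle contact, had a difference of -0.08 (adjusted p = 0.694).

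The chains of type IV collagen did not share a direction. Col4a1 and Col4a2, which assemble together in nearly all basement membranes, were both lower in PMSG-labelled arrays, and Col4a5 was higher. Col4a3, Col4a4 and Col4a5 are minor chains that assemble with each other, best known from the kidney filter. The groups did not overlap for any of the 5 genes, whereas 37% of all gene names had no overlap. In the genome the genes of a pair lie head to head, and their starts are separated by a short stretch of DNA. These stretches, from the RefSeq annotation of assembly GRCr8, are shown because the differences of each pair had the same sign. Capitals mark the letters GGGCGG or their reverse complement, a GC box that transcription factors of the Sp family can bind.
Col4a1 and Col4a2, chr16:84885521-84885596, plus strand, the whole 76 bases between the starts: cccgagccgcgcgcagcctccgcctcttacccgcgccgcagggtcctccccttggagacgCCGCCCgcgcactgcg
Col4a3 and Col4a4, chr9:91323740-91323989, plus strand, 250 of the 412 bases between the starts: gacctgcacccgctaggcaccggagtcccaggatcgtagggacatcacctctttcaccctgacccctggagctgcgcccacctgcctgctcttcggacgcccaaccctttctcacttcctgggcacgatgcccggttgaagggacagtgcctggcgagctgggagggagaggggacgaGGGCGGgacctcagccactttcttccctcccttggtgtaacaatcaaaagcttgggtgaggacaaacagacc
The first stretch holds 78.9% G and C and the second 62%. Each has 1 match to the GC box, which is a match of letters and not a measured site.

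Col4a1 stood at 4.60, 4.52, 4.63 and 4.64 in control-labelled arrays 1 to 4, and at 3.68, 3.87, 3.68 and 3.76 in PMSG-labelled arrays 1 to 4. It was lower on each PMSG-labelled array than on any control-labelled one (difference -0.85, SE 0.088, adjusted p = 0.000334, probe at chr16:83157776-83157835 of rn4). Col4a2 stood at -0.63, -0.59, -0.51 and -0.40 in control-labelled arrays 1 to 4, and at -1.55, -1.51, -1.38 and -1.91 in PMSG-labelled arrays 1 to 4. PMSG-labelled array 4 was the lowest, and the mean fell by 1.06 (SE 0.13, adjusted p = 0.000666, probe at chr16:82900301-82900360 of rn4). A second Col4a1 probe had a difference of -0.49 that missed the threshold (adjusted p = 0.066). That probe carries glycine codons (GGN) 9 bases apart, the spacing of the repeat that codes for the collagen helix. It is printed with this run of codons in capitals, beside the dimmer Col14a1 probe, to show what repeat sequence on the array looks like.
Col4a1, second probe, rn4 chr16:83146135-83146194: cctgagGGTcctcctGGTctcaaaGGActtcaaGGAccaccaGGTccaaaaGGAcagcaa
Col14a1, second probe, rn4 chr7:92028347-92028406: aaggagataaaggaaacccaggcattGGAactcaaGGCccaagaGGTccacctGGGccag
The Col14a1 probe is the other of only 2 among the 53 collagen probes with at least 4 glycine codons spaced 9 bases apart, a run that 55 of all 30350 probes have. Since collagen repeats resemble each other, the collagen probes were compared between genes. The longest run of bases that probes of different collagen genes shared was 13 of their 60, between Col5a2 and Col1a1. The probes were not compared with transcripts, so whether they bind those of other genes was not tested.

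Col4a5 stood at -1.38, -1.02, -1.002 and -1.35 in control-labelled arrays 1 to 4, and at -0.80, -0.27, -0.53 and -0.43 in PMSG-labelled arrays 1 to 4. All PMSG-labelled arrays were higher than all control-labelled arrays (difference 0.68, SE 0.15, adjusted p = 0.00938, probe at chrX:36919794-36919853 of rn4), but with centring on the median the adjusted p was 0.0692. Col4a3 stood at -7.59, -6.24, -6.07 and -6.39 in control-labelled arrays 1 to 4, and at -5.66, -5.49, -5.68 and -5.82 in PMSG-labelled arrays 1 to 4. Control-labelled array 1, on which the probe was not well above background, was far below the other arrays, and without it the difference was 0.57 (adjusted p = 0.0181). With all arrays the measured difference of 0.91 missed the threshold (adjusted p = 0.0534, probe at chr9:82036908-82036967 of rn4). For this dim probe it was 0.26 with normexp (adjusted p = 0.0842) and 0.57 with quantile normalisation (adjusted p = 0.203). Col4a4 stood at -2.52 ± 0.34 in control-labelled and -1.97 ± 0.22 in PMSG-labelled arrays (SD, n = 4 each, difference 0.55, adjusted p = 0.0556). The highest control-labelled and the lowest PMSG-labelled array of Col4a4 were both at -2.16 after rounding.

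**Figure D3:**
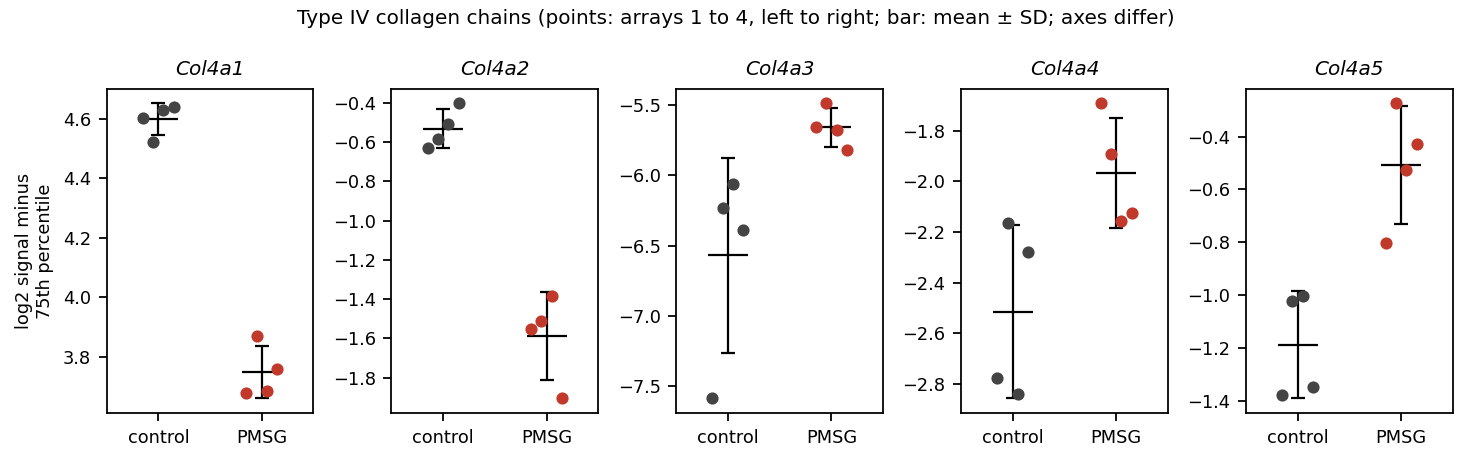
Log2 signal minus the array's 75th percentile (vertical axes, which differ between panels) for the 5 chains of type IV collagen. Points are arrays 1 to 4 of each label from left to right and bars give the mean ± SD. PMSG-labelled points lie lower for Col4a1 and Col4a2 and higher for Col4a3, Col4a4 and Col4a5.

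Among the 10 tested fibrillar collagens, Col3a1, Col11a2 and Col27a1 rose and Col5a1 fell. Col1a1 and Col1a2, the chains of type I collagen and the bulk of connective tissue fibres, had differences of 0.065 (adjusted p = 0.673) and 0.14 (adjusted p = 0.35), and both signs turned with centring on the median, to -0.10 and -0.031. Col1a1 stood at 6.06 ± 0.11 in control-labelled and 6.13 ± 0.16 in PMSG-labelled arrays (SD, n = 4 each), and a second probe had a difference of -0.32 (adjusted p = 0.245). Col1a2 was at 5.77 ± 0.13 and 5.91 ± 0.13 (SD, n = 4 each). Col3a1, the type III chain of fine reticular fibres, stood at 5.66, 5.55, 5.79 and 5.59 in control-labelled arrays 1 to 4, and at 5.75, 6.03, 6.15 and 6.09 in PMSG-labelled arrays 1 to 4. PMSG-labelled array 1 lay inside the control-labelled range and the other PMSG-labelled arrays above it. The difference of 0.35 (SE 0.12, adjusted p = 0.0467) was only just past the threshold and lost it under 14 of 18 alternative settings.

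Of the 3 type V chains, which set the width of type I fibrils, Col5a1 passed the threshold. Col5a1 stood at 1.92, 2.13, 2.22 and 2.14 in control-labelled arrays 1 to 4, and at 0.97, 1.24, 1.44 and 1.79 in PMSG-labelled arrays 1 to 4. Its groups did not overlap, and PMSG-labelled array 4 was the closest to the control-labelled arrays (difference -0.74, SE 0.18, adjusted p = 0.0127, probe at chr3:6970963-6971022 of rn4). Col5a2 had a difference of 0.42 (adjusted p = 0.115) on its brightest probe and -0.27 (adjusted p = 0.131) on the other, and Col5a3 one of 0.12 (adjusted p = 0.801). Col11a2, a type XI chain known from cartilage and the inner ear, was the fibrillar gene with the largest difference. It stood at -4.43, -4.91, -4.55 and -4.47 in control-labelled arrays 1 to 4, and at -3.02, -3.34, -3.02 and -3.24 in PMSG-labelled arrays 1 to 4. Both groups were tight and 2.7-fold apart (difference 1.43, SE 0.14, adjusted p = 0.000257, probe at chr20:4924524-4924583 of rn4), or 1.74-fold with normexp, and a second probe passed with 1.03 (adjusted p = 0.00332). Its partner Col11a1 had overlapping groups, with 0.27 (adjusted p = 0.418) on the brightest of 3 probes and -0.40 and -0.35 on the others. Col2a1, the cartilage type II chain, differed by 0.30 (adjusted p = 0.268). Col27a1, a minor fibrillar collagen also known from cartilage, rose from -2.92 ± 0.19 to -2.25 ± 0.28 (SD, n = 4 each, adjusted p = 0.0147), but not with quantile normalisation (adjusted p = 0.0643) or with centring on the median (adjusted p = 0.112). Col24a1, another minor fibrillar gene, was above background on 0 of 8 arrays.

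Type VI collagen forms beaded filaments close to cells, and 0 of its 4 tested genes passed, where 34.5% of all gene names did. Col6a1 and Col6a2, which share a trimer with Col6a3, differed by -0.47 (adjusted p = 0.13) and -0.47 (adjusted p = 0.119). Col6a1 stood at 3.47, 3.67, 4.08 and 3.55 in control-labelled arrays 1 to 4, and at 2.82, 3.04, 3.30 and 3.73 in PMSG-labelled arrays 1 to 4. Arrays 1 to 3 labelled PMSG were below the control-labelled arrays, while array 4 was inside their range, and the same held for Col6a2. Without PMSG-labelled array 4, Col6a1 differed by -0.64 (adjusted p = 0.0268) and Col6a2 by -0.62 (adjusted p = 0.0365). Col6a3 had a difference of -0.29 (adjusted p = 0.298). Col6a6, an alternative chain, was above background on 2 control-labelled and 4 PMSG-labelled arrays and differed by 0.25 (adjusted p = 0.733). Col7a1, the anchoring fibril collagen of epithelium, differed by -0.052 (adjusted p = 0.875).

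PMSG-labelled array 4 was often at an end of its group's range. Among the 35 tested collagens it was the highest of the 4 PMSG-labelled arrays for 13 genes and the lowest for 11. Over all gene names it was the highest for 21.2% and the lowest for 46.6%. Control-labelled array 3 was the highest of its group for 19 of the 35 collagens, against 29.5% of all gene names. The spread was larger among PMSG-labelled than among control-labelled arrays for 26 of the 35 collagens, and for 16099 of all 21922 gene names tested. The median SD of the collagens was 0.32 against 0.19, while the median SDs over all gene names were 0.27 and 0.16. Leaving out PMSG-labelled array 4 raised the number of collagens past the threshold from 15 to 20 and of all probes from 8658 to 11382. Collagens of interstitial matrix, selected for display after their values were seen, did not share 1 pattern on this array. It was the highest of the PMSG-labelled arrays for Col5a1, Col5a2, Col6a1, Col6a2, Col12a1, Col14a1, Col15a1 and Col16a1. It was the lowest of them for Col1a2 and Col6a3, and in between for Col1a1 and Col3a1. For Col5a1, Col6a1, Col6a2, Col12a1 and Col16a1, all with a negative difference, it was also the PMSG-labelled array nearest the control-labelled mean.

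**Figure D4:**
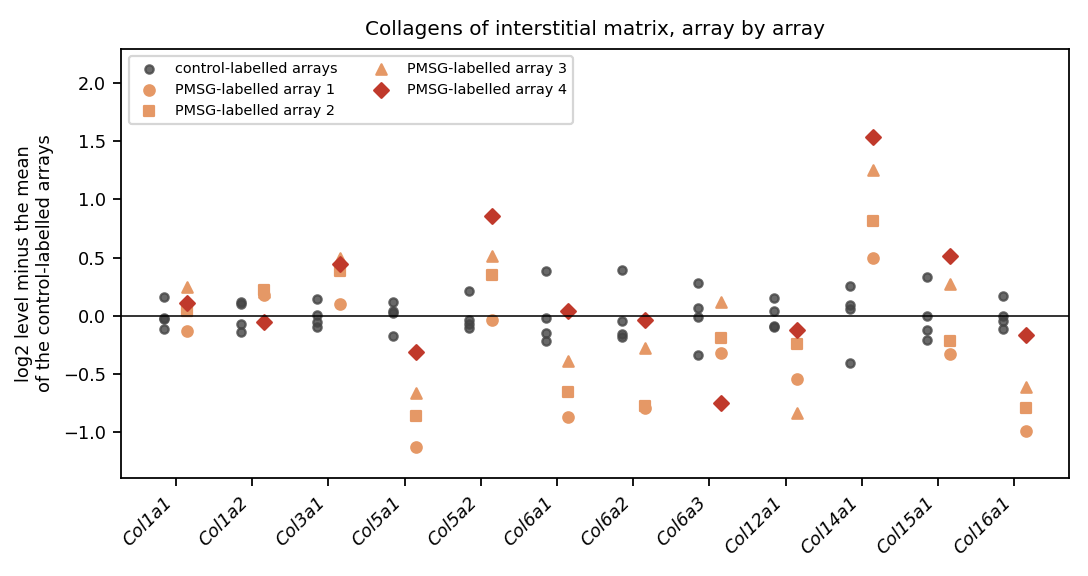
Log2 level of 12 collagens of interstitial matrix on each array, minus the mean of the 4 control-labelled arrays (vertical axis). Grey circles are control-labelled arrays, orange symbols PMSG-labelled arrays 1 to 3 and red diamonds PMSG-labelled array 4. The diamond is the highest of the PMSG-labelled points for Col6a1, Col6a2 and Col14a1, and for Col6a1 and Col6a2 it lies on or near the control-labelled points.

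Markers of cells that make collagen were summed on each array, in units of the array's 75th percentile. Of all gene names, 18% were higher and 16.5% lower. The 7 fibroblast markers summed to 27.1 to 30.8 on control-labelled and 23.7 to 32.5 on PMSG-labelled arrays, with the highest value on PMSG-labelled array 4. Of these, Pdgfra, Dcn and Lum rose and Vim fell. The 7 smooth muscle and pericyte markers summed to 37.4 to 62.6 and 39.1 to 66.1, again highest on PMSG-labelled array 4, and 0 of them passed the threshold. The 10 endothelial markers summed to 22.6 to 28.7 and 22.7 to 24.2. Of these, 5 fell, Kdr at -0.43, Flt1 at -1.04, Eng at -0.90, Esam at -0.58 and Tek at -1.20, and 2 rose, Vwf at 0.50 and Cldn5 at 1.55. The part of these markers in the collagen differences was not tested.

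Markers of other cell types differed as well. The counts below stand beside 18% of all gene names higher and 16.5% lower. The 8 markers of oviduct and surface epithelium summed to 17.3 to 22.7 on control-labelled and 32.6 to 45.3 on PMSG-labelled arrays, with 6 higher and 0 lower. The 5 macrophage and leukocyte markers summed to 6.98 to 8.71 and 11.1 to 12.5, with 4 higher. The 5 oocyte markers summed to 2.73 to 4.89 and 9.19 to 20.8, with 5 higher. The 4 theca markers summed to 150.0 to 173.6 and 30.6 to 70.7, with 2 lower (Cyp11a1 and Star) and 1 higher (Insl3). Cyp17a1 differed by -0.22 (adjusted p = 0.483). A sum gives most weight to the brightest probes of its list, so it need not follow the other members. The 5 granulosa markers on the array summed to 68.7 to 106.2 and 64.2 to 85.4, with 1 higher and 1 lower. Adipocyte markers varied widely within groups, at 5.66 to 46.0 and 17.3 to 50.5, and 0 of 5 passed. Striated muscle markers, at 0.394 to 0.734 and 0.311 to 0.507, had 2 of 5 higher and 1 lower, and red blood cell markers, at 4.80 to 13.8 and 2.12 to 3.57, had 1 of 3 lower. No marker matched on the array was below background on all 8 arrays. For these lists too, any part in the collagen differences was not tested.

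Genes that act on collagen were listed by role, and 64 of 76 listed names stood for a gene on the array. Of 63 tested, 28 (44.4%) passed the threshold, 8 higher and 20 lower, beside 34.5% of all gene names. With centring on the median the split was 2 higher and 25 lower. That centring moved the median difference of all tested probes from 0.11 to -0.054, and 8448 of 25303 probes passed. How many of all probes were higher and how many lower under it was not counted. Enzymes that hydroxylate or glycosylate the chains had 6 of 13 lower and 0 higher, where 16.5% and 18% of all gene names were. Among the catalytic subunits of prolyl 4-hydroxylase, which stabilises the helix, P4ha2 differed by -1.19 (adjusted p = 0.000248) and P4ha1 by -0.72 (adjusted p = 0.00745). P4ha3, another catalytic subunit, went the other way at 0.66 and missed the threshold (adjusted p = 0.0529). Their common partner P4hb differed by -0.34 (adjusted p = 0.0344). The galactosyltransferase Glt25d1, now named Colgalt1, fell by 0.53 (adjusted p = 0.00367). Among 5 genes of folding and export, 3 were lower and 0 higher, against the same background. These were the prolyl isomerases Fkbp10 at -0.71 (adjusted p = 0.0061) and Fkbp14 at -0.48 (adjusted p = 0.0195), and the collagen chaperone Serpinh1, also called HSP47, at -0.45 (adjusted p = 0.0169).

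Lysyl oxidases, which crosslink collagen and elastin, showed 4 of 5 genes lower, where 16.5% of all gene names were. Loxl2 stood at 1.61, 1.75, 1.98 and 1.77 in control-labelled arrays 1 to 4 and -0.15, -0.28, 0.11 and 0.48 in PMSG-labelled arrays 1 to 4. All PMSG-labelled arrays were lower, with a difference of -1.74 (adjusted p = 0.000296). Loxl4 was above background on 4 control-labelled and 1 PMSG-labelled array. With dim arrays raised to their lowest spot signal well above background, it was 3.13-fold lower in the processed signals (adjusted p = 0.000249 as measured). This size depends on the processing, since the fitted fold was 2.44 in the deposited values and 1.29 with normexp. Loxl1 differed by -0.88 (adjusted p = 0.000816) and Loxl3 by -0.69 (adjusted p = 0.0314), while Lox itself, the founding member, differed by 0.29 (adjusted p = 0.21). Of 7 genes of propeptide cleavage, 2 were lower and 1 higher, next to 16.5% and 18% of all gene names. Adamts3, of the family that removes the amino-terminal propeptide, was above background on 4 control-labelled and 1 PMSG-labelled array. With dim arrays raised in the same way, it was 3.94-fold lower in the processed signals (adjusted p = 7.51e-05 as measured). Its fitted fold with normexp was only 1.52. Pcolce, which speeds up removal of the other propeptide, differed by -0.68 (adjusted p = 0.00133), and the protease Bmp1, which does the removal, by 0.42 (adjusted p = 0.0131).

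Among genes for proteins that coat fibrils the direction was the opposite, with 5 of 8 higher and 0 lower. Of all gene names 18% were higher and 16.5% lower. These were the matrix glycoprotein gene Tnxb at 1.09 (adjusted p = 0.00987), the small leucine-rich proteoglycan genes Dcn at 0.70 (adjusted p = 0.0151), Lum at 0.58 (adjusted p = 0.0252) and Bgn at 0.30 (adjusted p = 0.0255), and Kera. Kera was above background on 1 control-labelled and 4 PMSG-labelled arrays. With dim arrays raised as for Loxl4, it was 1.19-fold higher in the processed signals (adjusted p = 0.049 as measured). This call was lost under 12 of 17 alternative settings. Dcn and Lum are also in the fibroblast marker list. With centring on the median, 1 of the 8 passed, and with quantile normalisation 3. Of all 25303 tested probes, 8448 and 9050 passed under these settings. Of 9 collagen receptors, 4 were lower and 0 higher, again beside 16.5% and 18% of all gene names. Itga1 and Itgb1, the chains of a collagen-binding integrin, differed by -1.09 (adjusted p = 0.00146) and -0.65 (adjusted p = 0.00194), the collagen-activated kinase Ddr2 by -0.54 (adjusted p = 0.0221), and the integrin chain Itga11 by -0.43 (adjusted p = 0.04).

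Of 9 tested genes of collagen cleavage and its inhibition, 2 (22.2%) passed, beside 34.5% of all gene names. These were 1 higher and 1 lower gene, both for inhibitors of matrix metalloproteinases. With quantile normalisation or centring on the median, 1 was higher and 4 were lower. Under these settings 9050 and 8448 of all 25303 tested probes passed, which were not split by direction. Timp1 stood at 4.51, 4.18, 4.29 and 4.30 in control-labelled arrays 1 to 4 and 2.98, 2.89, 3.14 and 2.87 in PMSG-labelled arrays 1 to 4. The groups were clearly apart, with a difference of -1.35 (adjusted p = 0.000143), and Timp4 had one of 1.08 (adjusted p = 0.00941). The gelatinase gene Mmp2 had a difference of -0.049 (adjusted p = 0.887), the membrane protease gene Mmp14 one of -0.23 (adjusted p = 0.141), and the collagenase gene Mmp8 was above background on 0 of 8 arrays. Of 10 listed partners in the basement membrane, 7 were on the array, while Lama4, Lamb1 and Hspg2 were not matched by name. Of the 7, 1 (14.3%) passed, the laminin chain gene Lamb2 at 0.61 (adjusted p = 0.00522). With centring on the median Lamb2 did not pass (adjusted p = 0.0966), and 0 of the 7 did. Nid1, which links laminin to type IV collagen, varied widely within groups, and its difference of -1.18 (adjusted p = 0.0881) missed the threshold.

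**Figure D5:**
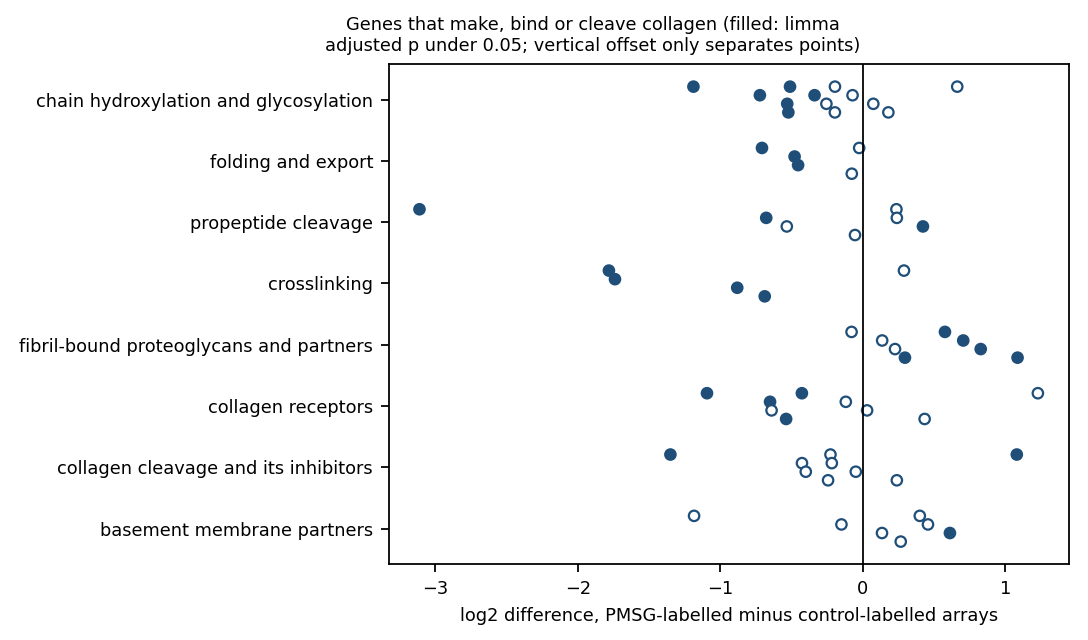
Log2 difference between PMSG-labelled and control-labelled arrays (horizontal axis) for the 63 tested genes that make, bind or cleave collagen, 1 row for each role. Filled points passed an adjusted p of 0.05 in limma. The filled points of chain hydroxylation, folding, crosslinking and receptors lie left of 0, and those of the fibril-bound proteoglycans lie right of it.

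The promoters of the collagens were searched for 3 short motifs on both strands, in windows of 300 bases from 250 before to 50 after the start in the RefSeq annotation of GRCr8, which held 30 of the 38 genes. GGGCGG, the GC box, was in 18 of 30 (60%), and in 33.1% of all 33469 windows. It was in 7 of the 8 genes that fell and 4 of 5 higher genes with a window. CCAAT, the motif of the factor NF-Y, was in 8 of 30 (26.7%), against 37.5% of all windows. It was in 4 of the 8 genes that fell and in 0 of the 5 higher genes with a window. Col3a1 and Col14a1 also rose but had no window. TATAAA was in 4 of 30 (13.3%), against 14.2% of all windows. A match is a description of letters and not a binding site. The windows of a head-to-head pair overlap, so these genes are not independent. Exon and untranslated region annotation of the probes was not used here.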

How the data were processed

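RNA (500 ng per sample, Cy3 label, per the labels' protocols) of 8 ovary samples was hybridised to 1-colour Agilent arrays of 60-base probes on 1 slide. Spot intensity came, per the file headers, from Agilent Feature Extraction 11.5.1.1 with background subtraction and detrending, and probe coordinates are on rn4 (version 3.4). A log2 table deposited beside the scanner files was on the scale of log2 signal minus each array's 75th percentile, and its probes were not centred. Its median offsets from the values used here were 0.0044 to 0.0148 and its column medians -3.21 to -2.82. The SD of the differences over probes was 0.11 to 0.21 per array, so single probes could differ more.

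From the deposited processed intensity, control and outlier spots were left out, spots of a probe were averaged on the log2 scale, and the 75th percentile of the array (768.866 to 1103.1 before log2) was subtracted. Of 30367 probes, 17 were dropped because an array lacked a usable spot, and 25303 well above background on at least 4 of 8 arrays were tested. The groups were compared in limma 3.58.1 under R 4.3.3, without covariates, by lmFit and eBayes. For a probe above background on all arrays of only 1 label, a fold with dim arrays raised is given. For this fold each array of the dimmer label took the lowest spot signal well above background on it, or the probe's own value if higher. It is not a lower limit, since other processing gave smaller folds for Loxl4 and Adamts3. In simulated data of 25303 probes, 200 were changed and both groups had the same spread. Of probes changed by 0.5, 1 and 2 (log2), 8.96%, 62.7% and 89.4% were recovered, with 6 false calls. In the measured data 8658 probes passed and the spread was larger among PMSG-labelled arrays, so these rates do not carry over to the comparison itself.

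The members, classes, pathway list, markers and named genes were chosen with earlier results of these data known. Arrays were given for every collagen that passed with at least a 2-fold difference and for the 2 largest differences per class, and for some others after their values were seen. Up to 3 pathway genes per role with the largest difference were named, and more where a count or a role called for it. Of 76 listed pathway names, 7 were not matched and 5 shared an array name with another listed symbol. The alternatives were quantile normalisation, median centring, normexp background correction (offset 50), the deposited values, other filters on dim probes, array weights, the mean of a gene's probes, slide row or replicate number as a block, and leaving out each array. Precision is limited by the 4 arrays in each group.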

Additional observations from a re-analysis of the deposited data

Results flagged for a closer look

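In 5 of 112 groups of 4 arrays examined, 1 array stood apart by Dixon's criterion, meaning that its gap to the nearest array took more of the group's range than the critical value for 4 arrays. Chance gives about 1 in 20, or 5.6 such groups. For Col1a2, PMSG-labelled array 4 was at 5.72 and the others at 5.95 to 5.99 (gap 0.865 of the range). For Col23a1, PMSG-labelled array 1 was at -4.70 and the others at -4.26 to -4.18 (0.846). For Itgb1, PMSG-labelled array 1 was at 1.77 and the others at 2.04 to 2.09 (0.846). For Fkbp10, PMSG-labelled array 4 was at 0.37 and the others at -0.20 to -0.16 (0.934). For Kera, control-labelled array 2 was at -7.71 and the others at -6.92 to -6.76 (0.833).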

How the results depend on the processing

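Over 18 alternatives, 10 of the 15 collagens past the threshold stayed past it under each one. The exceptions were Col3a1, Col16a1, Col27a1, Col4a5 and Col17a1. Leaving out 1 array gave 13 to 20 collagens past the threshold instead of 15, with 6 to 9 higher and 7 to 11 lower, 20 to 35 pathway genes instead of 28 and 6552 to 11382 probes instead of 8658. Quantile normalisation and median centring left 2 fibrillar genes past the threshold instead of 4, and median centring left 4 collagens higher instead of 7. Without PMSG-labelled array 4, which array weighting gave a weight of 0.279, Col4a4, Col6a1, Col6a2, Col12a1, Col2a1 and Col9a1 also passed. Of 21 pathway genes named by the rule, 13 stayed past the threshold under every alternative run for them. Among these 13, Adamts3 and Loxl4 had 17 alternatives, since the filter for probes above background on all 8 arrays left them out. The exceptions were Kera (lost under 12), Ddr2 (5), Bmp1 (3), Fkbp14 and Serpinh1 (2 each), and Tnxb, Dcn and Lamb2 (1 each). With normexp, 6 of 36 named genes past the threshold had folds over 1.5 times smaller (Col8a1, Col20a1, Col23a1, Col11a2, Adamts3 and Loxl4), and 0 turned.

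Signs turned for 10 collagens, none of them past the threshold. Quantile normalisation turned Col1a1 to -0.020 and Col6a6 to -0.073. Median centring turned Col1a1 to -0.10, Col1a2 to -0.031, Col5a3 to -0.045, Col15a1 to -0.11 and Col19a1 to -0.078. Col13a1 turned to 0.086 with normexp and 0.24 in the deposited values. Array weights turned Col15a1 to -0.074 and Col22a1 to 0.0057. The mean of a gene's probes turned Col1a1 to -0.13 and Col11a1 to -0.16. Without single arrays, the difference lay between -0.093 and 0.19 for Col15a1, -0.068 and 0.25 for Col19a1, -0.49 and 0.063 for Col22a1, -0.12 and 0.38 for Col5a3, -0.070 and 0.77 for Col6a6 and -0.25 and 0.12 for Col7a1. The cause was not tested.

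With the replicate number as a block, 14 collagens passed (6 higher, 8 lower), as did 22 pathway genes and 7346 probes, and Col3a1 was lost (adjusted p = 0.0777), as were Bmp1, Ddr2 and Fkbp14 among the 21 pathway genes. Same-numbered arrays deviated together weakly or not at all (correlations -0.019 to 0.18). The labels do not say whether the numbers pair the arrays, and these correlations cannot decide it. With slide row as a block, 14 collagens and 8124 probes passed.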
